A study of Daucus carota with 10 samples.

Results

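LOC108220105, LOC108211175, LOC108211455, LOC108216446 and LOC108217939 (gene IDs 108220105, 108211175, 108211455, 108216446 and 108217939), which the authors list under monoterpenoid biosynthesis, were followed through carrot taproot tissues. They are 5 of the 36908 loci measured. The authors found them as differentially expressed genes between the xylem and phloem of a cultivar (E against F, G against H) or between the xylems or phloems of different cultivars (E against G, F against H). The genes were thus chosen by their expression differences in those 4 contrasts, which are described here without a test. The tests set each tissue against CT, which took no part in that choice, although the libraries of the other group in each test did.

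RNA was sequenced from taproots of 120-day-old greenhouse plants, in 5 groups with 2 libraries each, and the methods state that taproots of a cultivar were mixed. E was xylem and F phloem of a purple-rooted cultivar, G was xylem and H phloem of a second one, and CT was the undissected slice of the root of 'H13.360IND', labelled as an orange cultivar and called yellow in the study's methods. The sample descriptions carry the word CK for CT and Treat for the other groups, but no treatment is described for any group. The descriptions of E, F, G and H disagree on the cultivar. The sample titles name 'Purple Haze' for E and F and 'Purple 68' for G and H, whereas the series design and the study's methods give 'Purple 68' for E and F and 'Purple Haze', a purple root with an orange core, for G and H. The groups are therefore called by their letters. CHS1, the chalcone synthase that makes the first flavonoid of the anthocyanin pathway, stood at 4958 and 7154 FPKM in E, whose characteristics say orange, and at 78.9 and 74.8 FPKM in G, whose characteristics say purple. It had 7591 and 8899 FPKM in F, 6252 and 8503 FPKM in H, and 8.40 and 8.72 FPKM in CT. The study describes E as purple xylem and G as orange xylem, and reports high CHS1 expression in all purple tissues. Each library held 13909841 to 17118787 assigned fragments, a total inferred from the FPKM values. For this, the commonest product of FPKM and listed length in a library was taken to stand for a single fragment. The Pearson correlation between the 2 libraries of a group lay between 0.932 in E and 0.978 in CT. E replicate 2 and H replicate 2 had 15219 and 15434 loci at 1 FPKM or more, against 16909 to 18450 in the other libraries. FPKM, the unit of all levels below, is the number of fragments per kilobase of transcript, scaled to the assigned fragments of the library. Where fragments are given, they were recovered from the FPKM, the listed length and the library total.

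Monoterpenes are small volatile compounds built from geranyl diphosphate, which plants assemble from isopentenyl and dimethylallyl diphosphate, largely in plastids. Terpene synthases convert geranyl diphosphate into cyclic or linear monoterpenes, and other enzymes such as dehydrogenases may then modify these. In carrot roots, mono- and sesquiterpenes are stored in oil ducts and contribute to the aroma and the harsh taste. By the authors' matching to Arabidopsis, LOC108220105, LOC108211455, LOC108216446 and LOC108217939 resemble AT3G25830, a cineole synthase that makes several monoterpenes in Arabidopsis roots. LOC108211175 resembles AT2G24210, known in Arabidopsis as TPS10, which makes myrcene and ocimene. What the carrot enzymes make is not known from these data. Terpene synthases form a large family, and how reads that fit several members were counted is not given in the sources used here.

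The genes lie apart in the genome. In the coordinates of the deposited data, whose genome build is not given in the sources used here, LOC108220105 spans 20668426 to 20671996 on the minus strand of the sequence whose genes RefSeq places on chromosome 5. LOC108211175 (45437829 to 45440536) and LOC108211455 (48088677 to 48092285) are both on the minus strand of chromosome 3, with 2.65 Mb between their starts. LOC108216446 (33914066 to 33916717, plus strand) and LOC108217939 (2273084 to 2275048, minus strand) are on chromosome 4, 31.6 Mb apart. The listed transcript length is 1403 bases for LOC108217939 and 1950 to 2090 bases for the other genes.

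Among the 4 genes matched to the cineole synthase, LOC108220105 was highest in F. Its levels were 0.17 and 0.33 FPKM in E, 25.6 and 26.0 FPKM in F, 0 and 0 FPKM in G, 0.79 and 0.92 FPKM in H, and 4.44 and 2.15 FPKM in CT. These correspond to 6 and 11 fragments in E, 811 and 897 fragments in F, no fragment in G, 25 and 30 fragments in H, and 129 and 77 fragments in CT. No 2 groups overlapped, and the order of the means was F, CT, H, E and G. The mean level in E was 102-fold lower than in F, and in G at least 9.24-fold lower than in H, taking 3 fragments per library (0.0947 and 0.0903 FPKM in G) as the limit that a count of 0 allows. Between the phloems, F exceeded H 30.2-fold.

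LOC108217939 was highest in H. No fragment was counted in either E library, which allows up to 0.129 and 0.134 FPKM (3 fragments). F had 0 and 0.95 FPKM, G had 10.96 and 0.13 FPKM, H had 42.6 and 24.3 FPKM, and CT had 0 and 0.083 FPKM. Both H libraries, with 905 and 532 fragments, lay above all others, and the mean in G was 6.03-fold lower than in H. The 2 G libraries were unlike each other, with 233 and 3 fragments, so the level of this gene in G xylem is set by a single library. F, with 0 and 22 fragments, stood 70.4-fold lower than H. Apart from H and G, neighbouring groups in the order of means (H, G, F, CT, E) overlapped.

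LOC108211455 was a low-level gene whose order of means was CT, F, G, H and E. It gave 0 and 0.12 FPKM in E, 2.04 and 4.24 FPKM in F, 1.69 and 1.34 FPKM in G, 0.80 and 0.40 FPKM in H, and 5.07 and 8.55 FPKM in CT. None of the neighbouring groups overlapped, but the E level rests on 0 and 4 fragments. E xylem was 51.8-fold lower than F phloem, while G xylem was 2.52-fold higher than H phloem.

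LOC108216446 overlapped between neighbouring groups, apart from E. Its levels were 0.15 and 0.061 FPKM in E, 2.29 and 1.64 FPKM in F, 6.94 and 3.89 FPKM in G, 1.63 and 4.54 FPKM in H, and 3.54 and 10.3 FPKM in CT. E, with 5 and 2 fragments, was below the other 8 libraries, and CT, G, H and F overlapped along the order of their means. E was 19.0-fold lower than F and 52.4-fold lower than G. The log2 differences of G against H (0.71) and F against H (-0.37) are between groups that overlap.

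The myrcene and ocimene synthase match, LOC108211175, was the most abundant of the genes in all libraries except E replicate 2, where LOC108220105 led by a small margin, and both H libraries, where LOC108217939 led. Its levels were 1.12 and 0.32 FPKM in E, 43.2 and 28.2 FPKM in F, 37.6 and 35.4 FPKM in G, 28.6 and 14.0 FPKM in H, and 44.1 and 59.1 FPKM in CT. E stood apart from the rest, 49.6-fold lower than F and 50.8-fold lower than G. Of the neighbouring groups in the order CT, G, F, H and E, G and F as well as F and H overlapped.

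**Figure D1:**
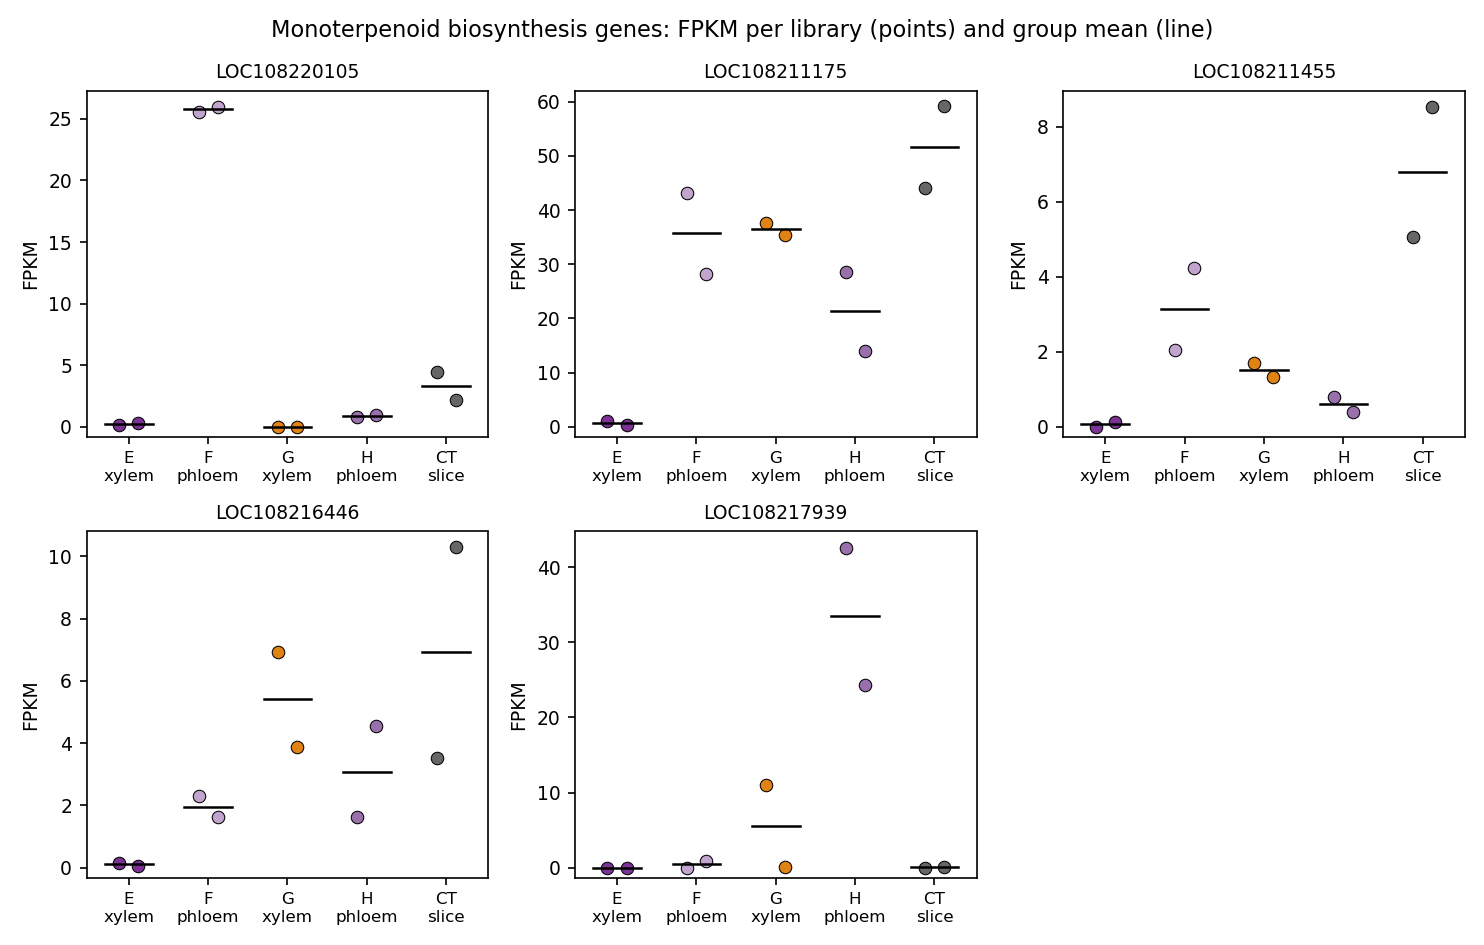
FPKM of the 5 monoterpenoid biosynthesis genes in each library (points, 2 per group) with the group mean (black line), for xylem of E, phloem of F, xylem of G, phloem of H and the slice of CT, each panel on its own linear axis from 0. LOC108220105 stands at 25.6 and 26.0 FPKM in F against 4.44 or less in the other groups, and LOC108217939 at 42.6 and 24.3 FPKM in H, while all genes are at 1.12 FPKM or less in E.

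Summed over the 5 genes, E had 1.44 and 0.835 FPKM, F had 73.1 and 61.1 FPKM, G had 57.2 and 40.8 FPKM, H had 74.4 and 44.2 FPKM, and CT had 57.1 and 80.2 FPKM. Both E libraries lay below the other 8, whose sums were between 40.8 and 80.2 FPKM and were made up of the genes in different shares. LOC108211175 took 59.1% and 46.2% of the sum in F libraries, 65.7% and 86.9% in G, 38.4% and 31.7% in H, and 77.2% and 73.7% in CT. LOC108220105 took 35.0% and 42.6% in F, and LOC108217939 took 57.3% and 55.0% in H. In bulk tissue, fewer cells that use a gene cannot be told apart from less RNA per cell.

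The xylem to phloem difference had another sign in the 2 cultivars for some genes. For LOC108211175, xylem minus phloem on the log2(FPKM + 1) scale was -4.43 for E against F and 0.83 for G against H, and for LOC108211455 it was -1.91 and 0.66. In both cases both E libraries lay below both F libraries, and both G libraries lay above both H libraries. LOC108220105 was lower in xylem in both cultivars (-4.42 for E against F and -0.89 for G against H). For LOC108217939 the values were -0.48 for E against F, where the libraries overlapped, and -3.17 for G against H. These differences belong to the contrasts from which the genes were chosen, and the change of sign was not tested. The share of all genes with such a change of sign was not counted.

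The authors list a sixth gene under the same pathway, LOC108204680, which is not counted among the 5. It resembles AT2G24190, a short-chain dehydrogenase/reductase of Arabidopsis, and was more abundant than each of the 5 genes in all libraries except CT replicate 2. Levels were 31.9 and 32.9 FPKM in E, 127 and 117 FPKM in F, 167 and 160 FPKM in G, 108 and 60.4 FPKM in H, and 81.2 and 43.9 FPKM in CT. Its xylem to phloem differences were -1.88 for E against F and 1.01 for G against H, without overlap in either pair.

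**Figure D2:**
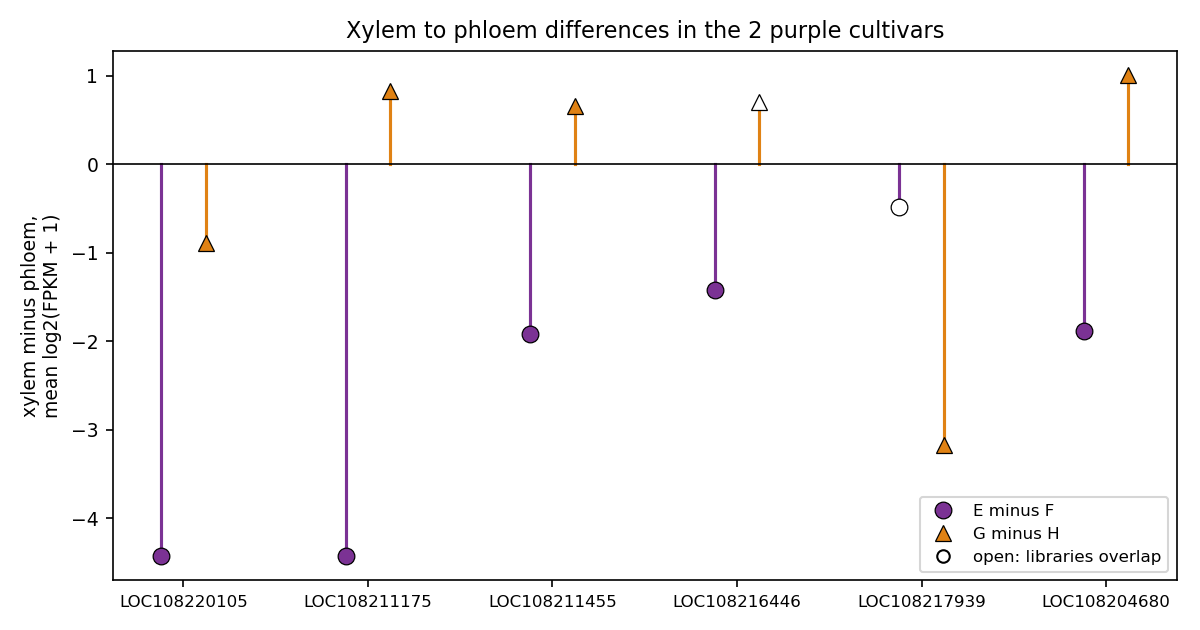
Difference of the mean log2(FPKM + 1) between xylem and phloem, E minus F (circles) and G minus H (triangles), for the 5 genes and LOC108204680, with open symbols where libraries of the 2 tissues overlap. LOC108211175 stands at -4.43 in E against F and at 0.83 in G against H, LOC108211455 and LOC108204680 change sign in the same way without overlap, and LOC108220105 and LOC108217939 are below 0 in both.

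Each dissected tissue was then set against CT with limma, a linear model that moderates each gene's variance, on log2(FPKM + 1). Genes whose mean reached 1 FPKM in at least 1 of the 2 groups were tested. Those with a p below 0.05 after Benjamini-Hochberg adjustment and a log2 fold change of 1 or more, up or down, were called. Fold changes are on this scale, which understates the change of low genes. The 4 comparisons share the CT libraries, and CT differs from the tissues in both cultivar and tissue, which cannot be told apart. The median of all genes tested was itself below 0, at -0.49 for E, -0.41 for F, -0.23 for G and -0.46 for H, so the change relative to this median is given beside each value of the 5 genes.

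In E, the 4 genes tested were all called lower than in CT, against 11.6% of the 19400 genes tested that were called lower, 3.54% higher and 15.2% in either direction. LOC108217939 was below the level needed for testing in both E and CT. The means in E were 0.719 FPKM for LOC108211175, 0.061 for LOC108211455, 0.103 for LOC108216446 and 0.252 for LOC108220105. These 4 genes thus reached the level for testing through CT alone and could only come out lower, so their shared direction is no result. Without the filter on low values, 2 of the 5 genes were called. As the E libraries took part in choosing the genes, the count of calls is no independent evidence of direction. The same holds for F, G and H below. The log2 fold change was -4.96 for LOC108211175 (SE 0.40, limma adjusted p = 0.0114, -4.47 relative to the median), a mean 71.7-fold lower. It was -2.85 for LOC108211455 (SE 0.36, limma adjusted p = 0.0184, -2.35 relative to the median), -2.70 for LOC108216446 (SE 0.51, limma adjusted p = 0.0337, -2.21 relative to the median) and -1.73 for LOC108220105 (SE 0.37, limma adjusted p = 0.0425, -1.24 relative to the median). Both E libraries lay below both CT libraries for these 4 genes. How many of all genes did so was not counted, so this adds nothing to the tests. Leaving out either E library ended the calls of LOC108216446 (adjusted p of 0.0502 and 0.107) and LOC108220105 (0.0572 and 0.0929), and so did quantile normalization (0.0546 and 0.170) and testing without the filter on low values (0.0564 and 0.0642).

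In F, LOC108220105 was the only one of 4 genes tested to be called, and it was higher than in CT, as were 7.77% of the 19712 genes tested, with 21.6% called lower and 29.4% in either direction. Its log2 fold change was 2.69 (SE 0.31, limma adjusted p = 0.00890, 3.10 relative to the median), a mean 7.83-fold higher. LOC108211175 (-0.53, -0.13 relative to the median, adjusted p = 0.178), LOC108211455 (-0.93, -0.53 relative to the median, adjusted p = 0.112) and LOC108216446 (-1.28, -0.88 relative to the median, adjusted p = 0.0892) were not called by limma. Both F libraries lay below both CT libraries for each, by little for LOC108211175 (43.2 in F replicate 1, 44.1 FPKM in CT replicate 1). The share of all genes without overlap was not counted, so this adds nothing to the tests.

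In G, 2 of 5 genes were called and both were lower than in CT, beside 7.96% of the 19456 genes tested that were called lower, 5.36% higher and 13.3% in either direction. LOC108220105, with no fragment in either G library, had a log2 fold change of -2.05 (SE 0.35, limma adjusted p = 0.0261, -1.82 relative to the median), and against the floor of 3 fragments per library G was at least 35.6-fold lower. It reached the level for testing through CT alone and could only come out lower. LOC108211455 had -1.60 (SE 0.33, limma adjusted p = 0.0375, -1.38 relative to the median), a mean 4.50-fold lower. LOC108211175 (-0.47, -0.25 relative to the median, limma adjusted p = 0.146) was not called. LOC108216446 (-0.20, 0.025 relative to the median, limma adjusted p = 0.797) was not called either, and its sign turned with G replicate 2 or CT replicate 2 left out, to 0.15 and 0.46, or under quantile normalization, to 0.083. LOC108217939 (1.82, 2.05 relative to the median, SE 1.07, limma adjusted p = 0.261) rests on the G library with 233 fragments. Leaving out either G library ended both calls, with adjusted p of 0.105 and 0.0698 for LOC108220105 and 0.112 and 0.0883 for LOC108211455, and that of LOC108211455 was also lost under quantile normalization (0.0552) and without the filter on low values (0.0715).

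In H, 2 of 5 genes were called, 1 higher and 1 lower than in CT, beside 10.2% of the 19496 genes tested, 3.85% higher and 6.31% lower. LOC108217939 had a log2 fold change of 4.996 (SE 0.45, limma adjusted p = 0.0168, 5.45 relative to the median). It passed the filter on low values through H alone (mean 33.5 FPKM, against 0.042 FPKM in CT), and the H libraries took part in its choice. Its call is thus a description of the high level in H. CT held 2 fragments of this gene and H 1437, a ratio of 725 per assigned fragment, with an exact 95% interval of 200.4 to 5994 that covers counting error only. LOC108211455 was lower in H by limma, at -2.26 (SE 0.42, adjusted p = 0.0370, -1.81 relative to the median), a mean 11.3-fold lower, and the adjusted p was 0.0738 without H replicate 2 and 0.0647 without the filter on low values. LOC108211175 (-1.30, -0.85 relative to the median, adjusted p = 0.0872), LOC108220105 (-1.16, -0.70 relative to the median, adjusted p = 0.107) and LOC108216446 (-0.91, -0.45 relative to the median, adjusted p = 0.334) were not called by limma, and without H replicate 1 LOC108211175 was called (adjusted p = 0.0211).

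Leaving out either CT library left none of these genes called in any of the 4 comparisons, with adjusted p between 0.0503 and 0.240 for the calls that were lost, and it left 0 genes called in all in each comparison, except 9 for H without CT replicate 1. Limma then had a lone CT library, assumed to vary like the other group, and 2620 to 5363 genes passed an unadjusted p below 0.05 with the same minimum fold change. The signs of the called fold changes did not turn.

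**Figure D3:**
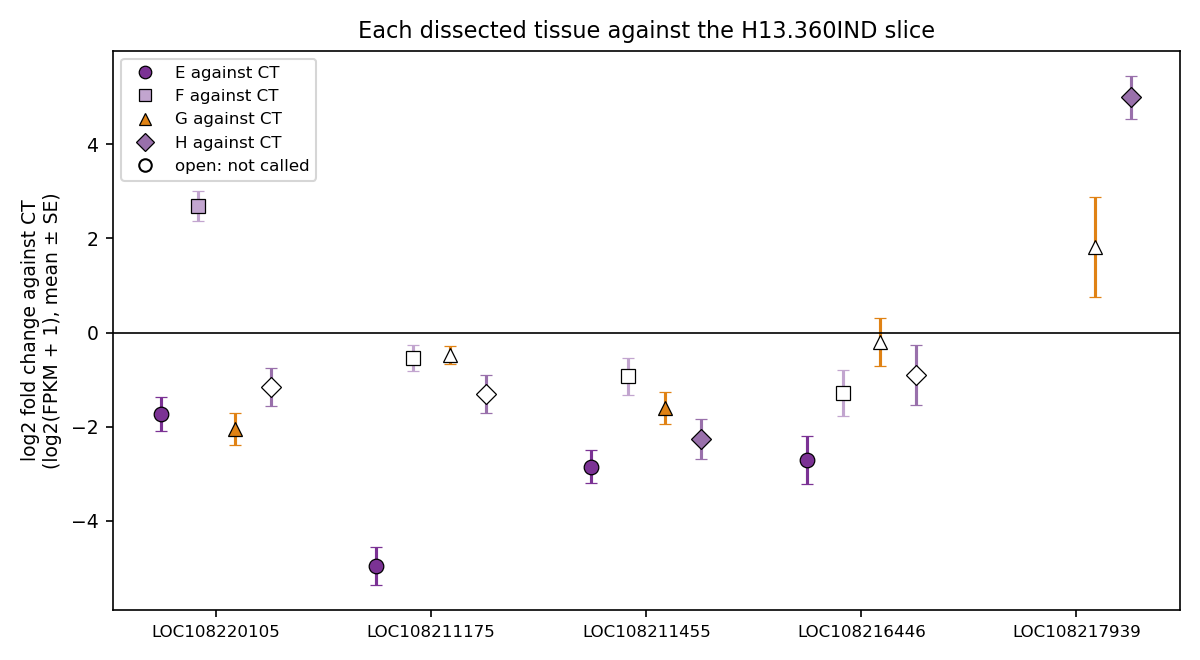
Log2 fold change against CT of log2(FPKM + 1) with its SE (limma) for the 5 genes in E, F, G and H, filled where called and open where not, with a line at 0. E lies below 0 for all 4 genes tested, down to -4.96 for LOC108211175, whereas F is at 2.69 for LOC108220105 and H at 4.996 for LOC108217939. The 4 genes tested in E reached the level for testing through CT alone and could only come out lower.

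Across the 10 libraries, LOC108211175, LOC108211455 and LOC108216446, for which both E libraries lay below the other 8, varied most alike. The Pearson correlation of log2(FPKM + 1) was 0.83 between LOC108211175 and LOC108216446, 0.77 between LOC108211175 and LOC108211455 and 0.66 between LOC108211455 and LOC108216446. LOC108220105 and LOC108217939 were at -0.28 with each other. The points are libraries of 5 groups in pairs, so these values describe the groups. Both E libraries lay below the other 8 for 3 of the 5 genes, where 8.78% of the 20318 genes that reached a group mean of 1 FPKM did, and this pattern includes contrasts that chose the genes. Both CT libraries lay above the other 8 for 2 of the 5 genes, LOC108211175 and LOC108211455, where 21.8% did.

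Of 20317 other annotated genes, those whose log2(FPKM + 1) followed a monoterpenoid gene most closely over the 10 libraries were listed, 3 for each. LOC108211175 was followed by LOC108220388 (Pearson r 0.98), a match of the Arabidopsis peroxidase AT5G66390, whose mean was 0.386 FPKM in E, against 28.4 FPKM in F, 38.2 FPKM in G, 14.7 FPKM in H and 44.2 FPKM in CT, and then by LOC108214532 and LOC108225330. LOC108220105 was followed by LOC108198678 (0.97), LOC108192411 and LOC108227121, and these had group means of 1.19 to 2.24 FPKM in F and at most 0.614 FPKM elsewhere. LOC108217939 was followed by LOC108194764 (0.98), which had 4.76 FPKM in H, 1.36 in G, 0.115 in CT and none in E or F, and by LOC108222365 and LOC108209023. LOC108211455 was nearest to LOC108215226 (0.97), LOC108196337 and LOC108192464, and LOC108216446 to LOC108219929 (0.96), LOC108198734 and LOC108193451. Each is among the highest of 20317 values searched, so the size of r says little by itself.

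Between 9 and 28 annotated genes started within 100 kb of each monoterpenoid gene. A few of them, picked after their values were seen, are given as values. LOC108222116, matched by the authors to the dihydroflavonol reductase AT5G42800, starts 85557 bases from the start of LOC108220105, at lower coordinates, and averaged 0.113 FPKM in E, 2.93 FPKM in F, 0.060 FPKM in G, 0 FPKM in H and 0.899 FPKM in CT (Pearson r with LOC108220105 of 0.95 over 10 libraries). LOC108219618, matched to the Arabidopsis glutathione S-transferase AT1G10370, starts 5895 bases from the start of LOC108217939, at lower coordinates, and averaged 0 FPKM in E and F, 2.76 FPKM in G, 6.53 FPKM in H and 1.54 FPKM in CT (r 0.72). LOC108216447 starts 2782 bases after the start of LOC108216446 on the same strand and averaged 0.748 FPKM in E, 1.04 FPKM in F, 4.72 FPKM in G, 0 FPKM in H and 3.51 FPKM in CT (r 0.52).

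The neighbouring terpenoid pathways were taken as the authors list them, again from the contrasts between these tissues, so their values are no independent evidence of direction. Sesquiterpene synthases use farnesyl diphosphate in place of geranyl diphosphate. Of 4 genes listed under sesquiterpenoid and triterpenoid biosynthesis, 3 match AT5G23960, the Arabidopsis sesquiterpene synthase TPS21, and LOC108199283 matches AT1G58440, a squalene epoxidase. Against CT, 2 of 4 were called in E, both lower, 3 of 4 in F, 2 lower and 1 higher, and none of the 3 tested in G or in H (limma adjusted p between 0.136 and 0.806, the smallest unadjusted p being 0.0525), beside the shares of all genes given above. Their median log2 fold change was -3.04 for E, -1.12 for F, 0.23 for G and -0.55 for H.

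LOC108192917 was close to LOC108211175 in being low in E, at 0.19 and 0.17 FPKM in E, 3.64 and 1.80 FPKM in F, 29.3 and 45.3 FPKM in G, 28.3 and 11.3 FPKM in H, and 19.9 and 35.6 FPKM in CT. It was called lower in E (log2 fold change -4.55, SE 0.42) and in F (-2.94, SE 0.39), whereas LOC108211175 was called lower in E and was at -0.53 in F (adjusted p = 0.178 by limma). LOC108205231 had 0.031 and 0.065 FPKM in E, 0.068 and 0.093 FPKM in F, 13.3 and 1.62 FPKM in G, 21.3 and 18.1 FPKM in H, and 58.8 and 15.8 FPKM in CT, and was called lower in E (-4.92, SE 0.68) and F (-4.87, SE 0.62). Without E replicate 2 and without F replicate 1 these 2 calls of LOC108205231 were lost. The call in F, where this gene had 2 and 3 fragments, was also lost with limma-voom on recovered fragments. The epoxidase match LOC108199283 ran the other way, with 2.55 and 7.42 FPKM in E, 7.002 and 3.68 FPKM in F, 0 and 0 FPKM in G, 0.16 and 0.061 FPKM in H, and 0.955 and 0.776 FPKM in CT, and was called higher in F (1.72, SE 0.33). LOC108206779, at 0 and 0.069 FPKM in E and 0.608 to 5.28 FPKM in the other groups, was not called in any comparison. LOC108192917 in E (mean 0.180 FPKM) and LOC108205231 in E and F (0.048 and 0.081 FPKM) reached the level for testing through CT alone. For LOC108199283 in F it was through F alone, as the CT mean was 0.865 FPKM. The direction of these calls was thus set by the filter on low values.

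**Figure D4:**
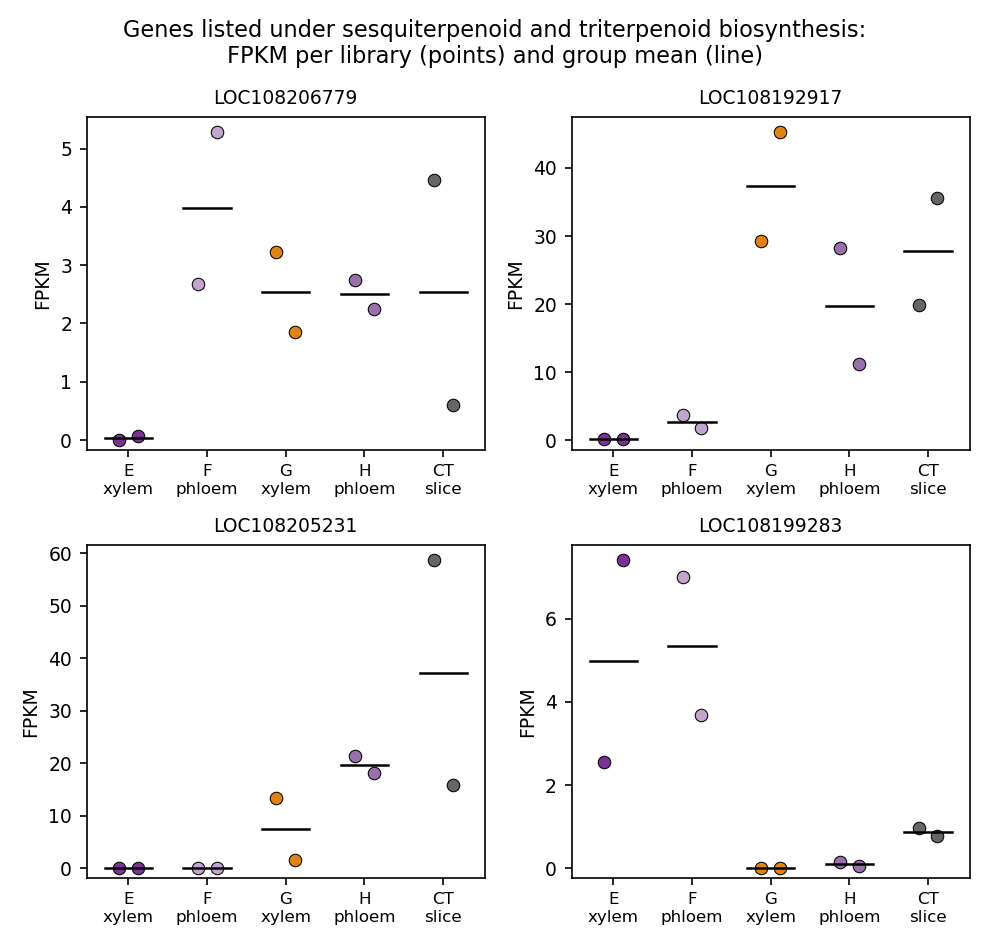
FPKM per library (points, 2 per group) and group mean (line) of the 4 genes listed under sesquiterpenoid and triterpenoid biosynthesis, in E, F, G, H and CT, each panel on its own linear axis. LOC108192917 and LOC108205231 are at 3.64 FPKM or less in E and F, while LOC108199283 is at 2.55 to 7.42 FPKM in E and F and at 0.955 FPKM or less in G, H and CT.

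Upstream of the synthases, 3 genes are listed under terpenoid backbone biosynthesis, which supplies the prenyl diphosphates. LOC108214395, matched to an acetoacetyl-CoA thiolase of the mevalonate route, was called higher in E (log2 fold change 1.91, SE 0.38) and F (1.77, SE 0.31), with 10.9 and 10.7 FPKM in E and 8.11 and 11.4 FPKM in F against 2.79 and 1.57 FPKM in CT. The phosphomevalonate kinase match LOC108204952 was called higher in G (1.43, SE 0.27), and the farnesol dehydrogenase match LOC108224131 was called lower in E (-3.89, SE 0.33) and G (-3.38, SE 0.68). In E, with a mean of 0.597 FPKM, this last gene reached the level for testing through CT alone and could only come out lower. Its G libraries held 72 and 2 fragments, and the call in G was also lost with a pseudocount of 0.1, without the filter on low values and under quantile normalization (limma adjusted p of 0.0750, 0.0655 and 0.0530). LOC108204680 was called higher than CT in G (1.44, SE 0.30) and in none of the other comparisons. Every call of these genes and of the sesquiterpenoid genes was lost without either CT library. In G all 3 were also lost without either G library, and LOC108214395 lost its call in E without E replicate 2 and in F without F replicate 2. Without the filter on low values, LOC108214395 in E (limma adjusted p = 0.0562) and LOC108204952 and LOC108204680 in G (0.0533 and 0.0658) were not called either. The fold changes of these genes are not adjusted for the median of all genes given above.

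Another branch of the same isoprenoid supply, carotenoid biosynthesis and cleavage, was represented by 17 genes with a RefSeq name, 16 of which were tested. Against CT, 2 were called in E (ZDS2 and NCED1, both lower), 8 in F (all lower, among them the phytoene desaturase PDS and the lycopene cyclase LCYB), 2 in G (CRTISO higher and PDS lower) and 2 in H (NCED2 and NCED3, lower). Over all genes tested, 11.6% were called lower in E, 21.6% lower in F, 13.3% in either direction in G and 6.31% lower in H. NCED1 in E and NCED3 in H, with means of 0.921 and 0.590 FPKM there, reached the level for testing through CT alone and could only come out lower. For these genes the median log2 fold change was -0.39 for E, -0.95 for F, 0.28 for G and -0.91 for H, beside -0.49, -0.41, -0.23 and -0.46 over all genes tested in the same comparisons. Without either CT library no carotenoid gene was called, and the counts were 6 and 4 without E replicate 1 and 2, 7 and 4 without F replicate 1 and 2, 0 without either G library, and 8 and 0 without H replicate 1 and 2.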

How the data were processed

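Per the authors' methods, paired-end reads were aligned to the NCBI carrot genome with TopHat2 2.0.12 on a Bowtie2 2.2.3 index. The submitters' processing notes also name HTSeq 0.6.1 and DESeq 1.18.0. The deposited values are FPKM per locus and library, normalised by the authors for transcript length and assigned fragments, for 36089 annotated genes and 819 unannotated loci. Several taproots of a cultivar were mixed, and the 2 libraries of a group are called biological replicates by the authors. Whether they came from separate mixtures is not stated, so p-values measure the spread between these libraries. Fragments were recovered as FPKM times listed length times the inferred library total and were whole within 0.01 for the 5 genes in every library. They were not whole for every gene, as for LOC108204952 with 101.76 in CT replicate 1 and 385.23 in G replicate 1. Limma-voom therefore did not run on exact fragments throughout. A test for counts had been planned in case the deposited values were counts, and as they are FPKM the log-scale test was used.

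Log2(FPKM + 1) of the 4 libraries compared was tested with limma (version 3.58.1, R version 4.3.3), its prior variance following a trend, over genes whose mean reached 1 FPKM in a group. Python 3.11.15, pandas 2.3.3, numpy 2.4.6 and matplotlib 3.10.9 did the rest. The procedure was tested on simulated data only with the same spread in all libraries and with changed genes of many fragments. It does not cover changes of low genes or the uneven spread between the libraries here. With 2 libraries against 2, an exact permutation test cannot go below p = 0.333. Alternatives were a pseudocount of 0.1, no filter on low values, a shared fit of the 10 libraries, a block for the replicate number, each library left out, quantile normalization, limma-voom on recovered fragments and no minimum fold change.

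The 5 members and the gene lists were chosen with earlier results of these data known. Genes named are the 5 members, LOC108204680, the genes that the authors list under terpenoid backbone and sesquiterpenoid and triterpenoid biosynthesis, and for each member the 3 annotated genes with the highest Pearson r. Outside this rule, CHS1 was named as a check of the labels, the carotenoid genes as a further list, and 3 neighbouring genes after their values were seen. Lists of terpenoid genes and of xylem and phloem markers that were to be drawn from annotated gene names could not be applied, because the gene table used here (RefSeq, assembly DH1 v3.0) gave few names. It matched 32112 IDs and served for chromosomes and for the carotenoid genes, which were taken by name and not by value. The labelled tissue was therefore not checked against markers, and no sequence was used here.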

Additional observations from a re-analysis of the deposited data

Results flagged for a closer look

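For 3 genes the xylem to phloem difference, as the difference of mean log2(FPKM + 1), pointed in opposite directions in the 2 purple cultivars, with no overlap between the libraries of the 2 tissues in either. LOC108211175 was at -4.43 for E against F and 0.83 for G against H, LOC108211455 at -1.91 and 0.66, and LOC108204680, the dehydrogenase match, at -1.88 and 1.01. The difference between the cultivars was not tested, because these contrasts chose the genes. The share of all genes with this pattern was not counted either, so it is not shown to be particular to these genes.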

How the results depend on the processing

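Without a filter on low values, the genes called against CT numbered 1449 in G and 971 in H, and the monoterpenoid genes called numbered 2 in E, 1 in G and 1 in H. A fit of all 10 libraries called 3289 genes in F, 1440 in G and 3677 in H, against 5789, 2592 and 1981. Quantile normalization left 2 monoterpenoid genes called in E and 1 in G, and changed the split of higher and lower calls to 1235 and 1229 in E (687 and 2258 without it), 2122 and 2135 in F (1532 and 4257), 1320 and 988 in G (1043 and 1549) and 1413 and 1231 in H (751 and 1230). With a library left out, the genes called ranged between 0 and 8074 in E, 0 and 5732 in F and 0 and 8611 in H, and were 0 in G each time, where 2935 to 4970 passed an unadjusted p below 0.05 with the same minimum fold change. The monoterpenoid genes called then ranged between 0 and 2 in E, 0 and 1 in F and 0 and 3 in H, and were 0 in G. LOC108216446 turned sign in G against CT without G replicate 2 (0.15), without CT replicate 2 (0.46) and under quantile normalization (0.083), and in F against H without H replicate 2 (0.17). With a library left out its values lay between -0.86 and 0.46 in G against CT, and between -0.91 and 0.17 in F against H. The cause was not tested.

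Libraries of the same number did not deviate together. The correlation of replicate differences was between -0.078 and 0.009 for the comparisons with CT. It was -0.28 for E against F, -0.56 for G against H, -0.42 for E against G and -0.10 for F against H. These values gave no sign that the numbers pair the samples. The values of -0.28, -0.56 and -0.42 mean that over the genes, libraries of opposite number deviated alike there. Each group gives a single replicate difference, whose sign depends on how its libraries were numbered. The values therefore cannot show whether libraries of different tissues depended on each other. The cause was not tested. With the replicate block, 3804 genes were called for E, 5770 for F, 2955 for G and 4652 for H, and 4, 1, 2 and 3 monoterpenoid genes. The depth limits the low genes: LOC108211455 and LOC108216446 rest on 7 fragments or fewer in E.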
